A study of Saccharomyces cerevisiae with 2 samples.

Results

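The nuclear-encoded subunits of the respiratory chain and of the ATP synthase were followed in the carotenoid producer BL03-D-4 as 42 genes taken by name from the deposited table of 7126 genes and RNAs. The table itself names 19 of them, and the other 23 were matched through their systematic names in the RefSeq annotation of R64, the reference genome of Saccharomyces cerevisiae. The experiment compared 1 library of cells grown for 24 h in YPM, a modified YPD medium, with 1 library of cells grown for 24 h in YPD, which the text of the study names YPD2. Both cultures were of the same strain, which derives from BY4742. In its genotype GAL80 is replaced by crtB, crtI and crtE, carotenoid genes that each stand behind the HSP26 promoter, a truncated HMG-CoA reductase is expressed from the CIT1 promoter, and ALD6 is deleted. Both media held tryptone and glucose. YPM also contained phosphate and sulfate salts and a trace metal solution, and its yeast extract came from another manufacturer and lot. The parts of the medium therefore cannot be told apart. The study took cells at about 24 h to be in stationary phase and reported different growth curves in YPD2 and YPM. Medium and state of growth cannot be told apart either. Values are TPM, in which the reads of a gene are divided by the length of its transcript and every library is then brought to a common sum.

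Respiration in budding yeast passes electrons from NADH and succinate to ubiquinone, then through complex III and cytochrome c to oxygen at complex IV, and the proton gradient built on the way drives the ATP synthase. This yeast has no proton-pumping complex I and oxidizes NADH with single-chain dehydrogenases on either face of the inner mitochondrial membrane. Most of these genes are repressed while glucose is plentiful and are switched on after the diauxic shift, many of them through the Hap2, Hap3, Hap4 and Hap5 complex, which binds CCAAT boxes in promoters. Some subunits exist as an aerobic and a hypoxic isoform, among them COX5A and COX5B in complex IV and CYC1 and CYC7 for cytochrome c.

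The promoter windows of the isoform pairs are shown first, with those of NDE2 and ATP15, the members with the lowest and the highest ratio of YPM to YPD. Each window runs from 250 bases before to 50 bases after the start of the coding sequence in R64, read 5′ to 3′ on the gene's strand. Capitals mark CCAAT and ATTGTT, a core of the site of Rox1, a repressor of hypoxic genes, on either strand. No window printed holds the spaced CGG site of the activator Hap1, searched on both strands, and in none do marked motifs overlap. The windows are at chrXIV:531475-531774 (plus strand) for COX5A, chrIX:154972-155271 (plus) for COX5B, chrX:526085-526384 (plus) for CYC1, chrV:79928-80227 (minus) for CYC7, chrIV:302961-303260 (plus) for NDE2 and chrXVI:29829-30128 (plus) for ATP15.
COX5A promoter: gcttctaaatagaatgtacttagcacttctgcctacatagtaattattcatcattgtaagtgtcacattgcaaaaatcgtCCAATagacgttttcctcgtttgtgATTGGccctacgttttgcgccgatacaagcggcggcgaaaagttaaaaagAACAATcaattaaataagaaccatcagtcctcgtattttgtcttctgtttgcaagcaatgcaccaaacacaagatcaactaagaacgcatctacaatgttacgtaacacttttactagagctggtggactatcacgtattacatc
COX5B promoter: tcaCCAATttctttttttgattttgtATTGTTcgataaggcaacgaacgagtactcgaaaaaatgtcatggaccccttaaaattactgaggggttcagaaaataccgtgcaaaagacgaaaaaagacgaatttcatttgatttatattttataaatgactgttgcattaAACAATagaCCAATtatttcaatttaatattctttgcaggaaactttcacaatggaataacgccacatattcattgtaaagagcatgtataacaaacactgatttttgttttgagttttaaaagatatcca
CYC1 promoter: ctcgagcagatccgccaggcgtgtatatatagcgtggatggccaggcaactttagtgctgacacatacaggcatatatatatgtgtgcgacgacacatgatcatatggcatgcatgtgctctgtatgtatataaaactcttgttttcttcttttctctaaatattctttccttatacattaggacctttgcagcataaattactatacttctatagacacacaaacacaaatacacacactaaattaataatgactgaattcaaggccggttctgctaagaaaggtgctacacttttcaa
CYC7 promoter: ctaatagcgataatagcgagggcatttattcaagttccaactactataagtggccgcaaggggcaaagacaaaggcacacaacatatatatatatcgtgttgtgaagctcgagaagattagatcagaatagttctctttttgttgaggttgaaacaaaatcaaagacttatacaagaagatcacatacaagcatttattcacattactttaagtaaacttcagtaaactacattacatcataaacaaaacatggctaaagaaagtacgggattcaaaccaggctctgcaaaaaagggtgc
NDE2 promoter: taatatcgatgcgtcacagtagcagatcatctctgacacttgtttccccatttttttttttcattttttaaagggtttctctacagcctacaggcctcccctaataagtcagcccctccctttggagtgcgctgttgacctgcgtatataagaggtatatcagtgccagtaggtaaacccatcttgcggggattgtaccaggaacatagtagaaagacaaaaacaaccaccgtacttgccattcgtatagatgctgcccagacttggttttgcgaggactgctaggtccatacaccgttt
ATP15 promoter: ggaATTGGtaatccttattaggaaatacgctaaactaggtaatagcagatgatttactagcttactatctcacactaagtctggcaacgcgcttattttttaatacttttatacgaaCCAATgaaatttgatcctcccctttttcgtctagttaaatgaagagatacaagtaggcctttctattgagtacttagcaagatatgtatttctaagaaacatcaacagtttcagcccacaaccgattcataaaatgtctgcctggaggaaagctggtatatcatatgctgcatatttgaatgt

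COX5A carries CCAAT on its own strand 170 bases and on the other strand 145 bases before the coding start, and ATTGTT on the other strand at 95 bases. COX5B carries CCAAT at 247 and 72 bases and ATTGTT at 224 and 81 bases. ATP15 holds CCAAT at 247 bases on the other strand and at 133 bases on its own, whereas the windows of CYC1, CYC7 and NDE2 hold none of the motifs, which says only that these letters are not in this stretch. Across the members, 35 of 42 windows (83.3%) held CCAAT on either strand, against 43.3% of the 6007 nuclear coding genes with such a window in R64. All 4 windows of complex II held it, as did 14 of 15 for the ATP synthase, 8 of 9 for complex IV, 7 of 9 for complex III, 2 of 3 for the NADH dehydrogenases and 0 of 2 for cytochrome c. ATTGTT was found in 17 of the 42 windows (40.5%), against 35.2% of all windows. The searched spelling of the Hap1 site was found in QCR6 alone among the members, against 0.133% of all windows. The 35 compared members with CCAAT had a median log2 ratio of YPM to YPD of -0.36 and the 6 without it -0.54. These matches describe sequence and show no binding.

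Nearly all of the genes were listed somewhat lower in YPM than in YPD, and none of them reached a 2-fold difference. For 41 of the 42 genes a ratio could be formed, and the remaining one, COX4, was listed at 0 in both libraries. Both values had 1 TPM added before the log2 ratio was formed, and a gene counted as changed from a ratio of 1, up or down, on this scale. With 1 library per medium, the differences below could not be set against replicate error, and neither p-values nor errors are given. By this limit 0 of the 41 genes changed, against 535 (8.43%) of the 6350 genes or RNAs in the table with a mean of at least 1 TPM, of which 208 (3.28%) were higher and 327 (5.15%) lower in YPM. After YPM was rescaled to bring the median gene to no change, this split was 255 higher and 257 lower. The log2 ratio was below 0 for 40 of the 41 genes, against 63.1% of all compared genes. It was below the median of all compared genes, -0.13, for 39 of them, against 50.0% by construction. The members had a median log2 ratio of -0.39 and ran from -0.97 for NDE2 to 0.11 for ATP15. With that rescaling, which shifts the median of all compared genes to -0.01, the median of the members was -0.26 and 39 of them stayed below 0, with ATP20 joining ATP15 above it.

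A smaller limit of 1.5-fold was also used. By it 10 members were lower in YPM, namely NDE2, COX9, SDH3, INH1, COX12, COX5B, SDH1, SDH2, CYC1 and CYT1, which is 24.4% of the 41, and 0 were higher. The share of all compared genes was 14.9% lower and 7.87% higher, 22.8% in both directions together. Among the 1927 compared genes at least as abundant as the scarcest compared member (a mean of 78.7 TPM), 13.2% were lower by this step and 58.3% were below 0. After the median gene was brought to no change, 5 of the 41 members (NDE2, COX9, SDH3, INH1 and COX12) were lower by 1.5-fold, against 10.7% of all compared genes. The share of members thus lay nearer to that of all compared genes than before the rescaling. The members were placed close together on the low side and outside the large changes, as the plot of the cumulative distribution shows.

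**Figure D1:**
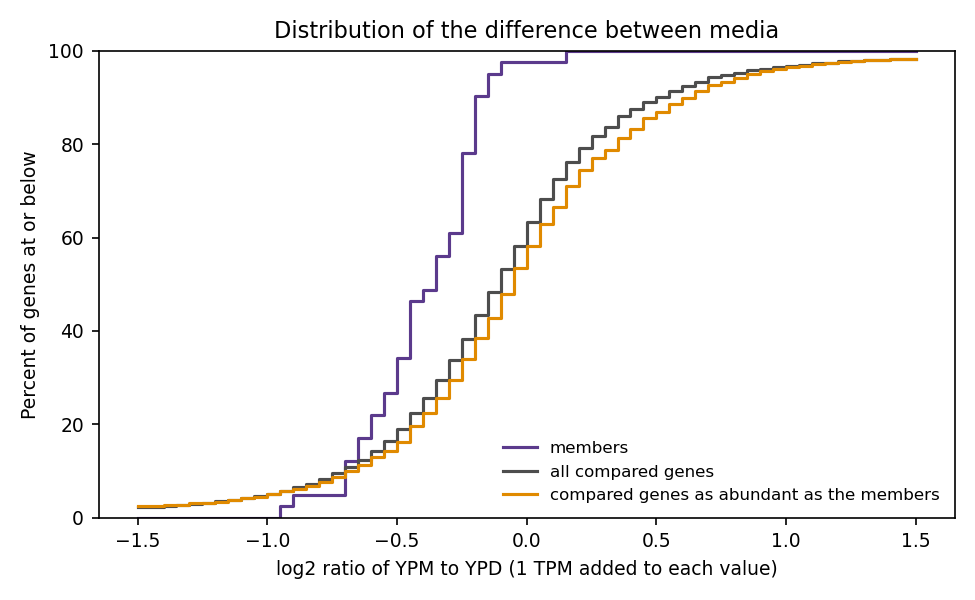
Cumulative distribution of the log2 ratio of YPM to YPD (x axis, 1 TPM added to each value) as the percent of genes at or below each ratio (y axis) for the 41 compared members, for all 6350 compared genes and for the 1927 compared genes at least as abundant as the scarcest member. The line of the members climbs between -0.97 and 0.11, while 8.43% of all compared genes lie at 1 or beyond on either side.

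The genes were among the abundant mRNAs of both libraries. Summed over the 41 genes they held 29554 TPM in YPM and 38844 TPM in YPD, 3.19% and 4.15% of all TPM listed in the same libraries, a ratio of sums of 0.761. Of 5828 protein-coding genes above 0, ranked by their mean TPM, 33 of the members were among the first 500 and 9 among the first 100, from ATP15 at rank 30 to CYC7 at rank 1819. Genes with short coding sequences had the higher TPM, with a Spearman's rho of -0.55 between coding length and mean TPM across the 41 genes, which share both libraries and are not replicates. The log2 ratio showed little such relation (rho of -0.11 with coding length and 0.02 with mean TPM). The 12 members with a coding sequence under 300 bases had a median log2 ratio of -0.41, and the 29 longer ones -0.36. Among all compared protein-coding genes the corresponding medians were -0.17 for 199 short genes and -0.13 for 5563 longer ones. Reads of 50 bases could separate all 42 coding sequences from the rest of the genome, since none shares a 50-base word with another place in R64, and none overlaps another coding gene of that annotation. Read length, the use of strand and the number of reads are not given in the sources used here, so neither shared antisense reads nor the depth behind a value can be judged.

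**Figure D2:**
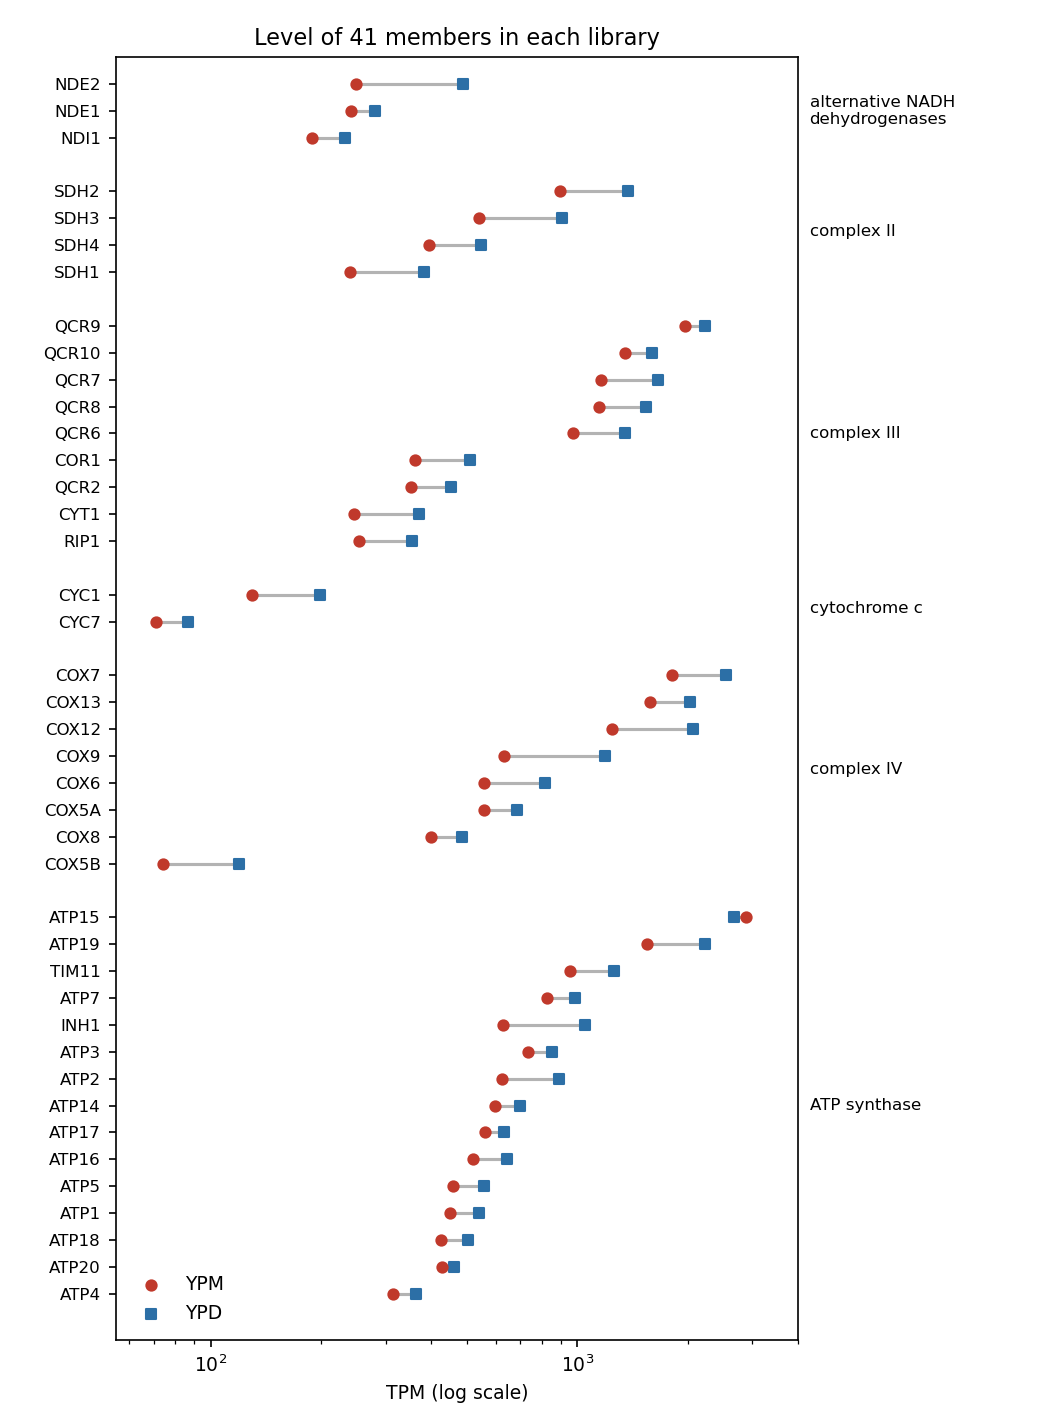
TPM on a log axis for the 41 compared members, with circles for the YPM library and squares for the YPD library, grouped by complex and ordered by mean TPM. The YPM circle lies left of the YPD square in every row but ATP15, which was listed at 2887 TPM in YPM against 2676 TPM in YPD.

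The medians of all complexes were below 0. Complex II had the lowest median log2 ratio, -0.64 over its 4 genes, followed by -0.52 for the 8 compared genes of complex IV, -0.47 for the 9 of complex III, -0.44 for the 2 cytochromes c, -0.30 for the 3 NADH dehydrogenases and -0.25 for the 15 genes of the ATP synthase. After the median gene was brought to no change the medians were -0.51 for complex II, -0.39 for complex IV and -0.34 for complex III. They were -0.31 for cytochrome c, -0.17 for the NADH dehydrogenases and -0.12 for the ATP synthase. Such a rescaling shifts all these genes nearly alike, so it could hardly change the order. With coding sequences under 300 bases left out and no rescaling, complex III (-0.49) lay below complex IV (-0.46). Whether these complexes differ from each other was not tested. Summed TPM in YPM stood at 0.645 times the YPD sum for complex II, 0.689 times for complex IV, 0.775 times for complex III and 0.834 times for the ATP synthase. The sums of the NADH dehydrogenases and of cytochrome c stood at 0.679 and 0.705 times those in YPD. By sums the NADH dehydrogenases, of which NDE2 was the most abundant, thus came next after complex II, and not near the ATP synthase as by medians.

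**Figure D3:**
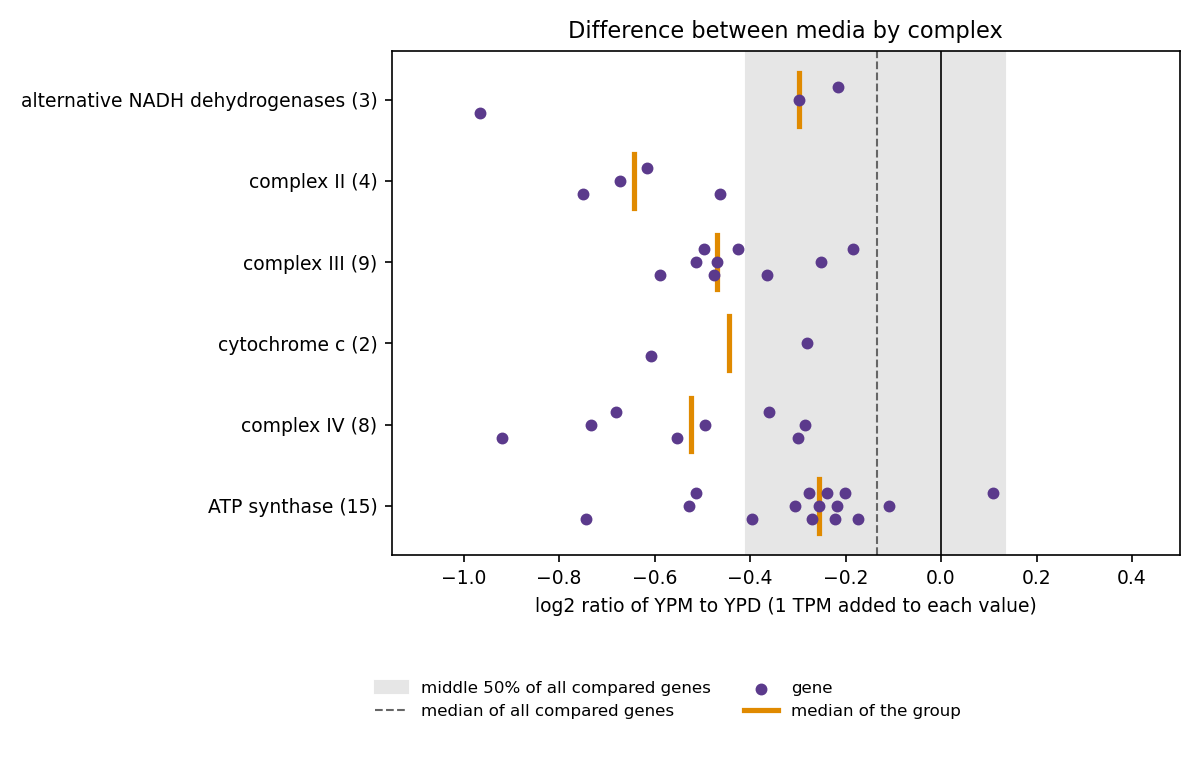
Log2 ratio of YPM to YPD (x axis, 1 TPM added to each value) of each compared member, by complex with the number of genes, with a bar at each median, a dashed line at the median of all compared genes (-0.13) and a grey band over their middle 50%. The 4 genes of complex II lie between -0.75 and -0.46, and 11 of the 15 ATP synthase genes lie between -0.39 and -0.11.

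Electrons from cytosolic and matrix NADH enter through 3 dehydrogenases, which do not pump protons. NDE2 (YDL085W), one of a pair that faces the intermembrane space and oxidizes cytosolic NADH, was listed at 249 TPM in YPM against 487 TPM in YPD. Its log2 ratio of -0.97 was the lowest of all members, at 51.1% of the YPD value and just short of the limit. NDE1 (YMR145C), the other external enzyme, was listed at 241 TPM in YPM against 280 TPM in YPD, a log2 ratio of -0.22. NDI1 (YML120C), which faces the matrix, had 189 TPM in YPM and 233 TPM in YPD (-0.30). The external pair thus stood at nearly equal levels in YPM, with 50.8% of the summed TPM from NDE2, while NDE2 held 63.5% of it in YPD. The proteins translated from R64 are 59.8% identical over 540 aligned residues, and their coding sequences share no run longer than 11 bases.

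Succinate dehydrogenase, complex II, takes electrons from succinate in the citric acid cycle, and all 4 of its genes were listed lower in YPM. SDH1 (YKL148C), the flavoprotein with the succinate site, was listed at 239 TPM in YPM against 382 TPM in YPD (-0.67). SDH2 (YLL041C), the iron-sulfur subunit, was the most abundant of the 4, with 897 TPM in YPM and 1375 TPM in YPD (-0.62). Beside these catalytic subunits stand the membrane anchors. SDH3 (YKL141W), which also serves in the TIM22 translocase, had 541 TPM in YPM and 909 TPM in YPD, the lowest ratio of the complex at -0.75. SDH4 (YDR178W), its partner, had 395 TPM in YPM and 545 TPM in YPD (-0.46). Paralogs of 3 of these subunits followed the same direction. SDH9 (YJL045W), a paralog of SDH1 with 85.0% identical protein over 634 aligned residues, was listed at 124 TPM in YPM against 242 TPM in YPD (-0.96). SHH3 (YMR118C) had 493 TPM in YPM and 675 TPM in YPD (-0.45), and SHH4 (YLR164W) had 232 TPM in YPM and 327 TPM in YPD (-0.49). The paralog made up 34.0% of the pair with SDH1 in YPM and 38.8% in YPD, and SHH3 made up 47.7% of its pair with SDH3 in YPM and 42.6% in YPD.

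Complex III passes electrons from ubiquinol to cytochrome c, and all 9 of its nuclear genes were listed lower in YPM. Its large subunits were the scarcer ones. CYT1 (YOR065W), cytochrome c1, had the lowest ratio of the complex, with 246 TPM in YPM and 371 TPM in YPD (-0.59). RIP1 (YEL024W), the Rieske iron-sulfur protein, was listed at 254 TPM in YPM against 354 TPM in YPD (-0.48). Beside these redox subunits stand the core proteins, which have no redox group. COR1 (YBL045C) was listed at 361 TPM in YPM against 509 TPM in YPD (-0.50), and QCR2 (YPR191W) at 352 TPM in YPM and 454 TPM in YPD (-0.36). The 5 small subunits QCR6 to QCR10 were more abundant, between 974 and 1967 TPM in YPM and between 1349 and 2234 TPM in YPD. Among them, QCR7 (YDR529C) had the lowest log2 ratio at -0.51, then QCR6 (YFR033C) at -0.47 and QCR8 (YJL166W) at -0.42. QCR10 (YHR001W-A, -0.25) and QCR9 (YGR183C, -0.18) were closest to the median of all genes. Both have coding sequences split by an intron, as does COX5B of complex IV, which stood at -0.68.

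Cytochrome c shuttles electrons between complexes III and IV, and its isoforms were the scarcest members next to COX5B. CYC1 (YJR048W), the main aerobic isoform, was listed at 130 TPM in YPM against 199 TPM in YPD, a log2 ratio of -0.61. CYC7 (YEL039C), the isoform favoured in hypoxia, was listed at 71.0 TPM in YPM against 86.5 TPM in YPD (-0.28). CYC7 held 35.3% of the sum of both in YPM and 30.3% in YPD, a difference of 4.97 percentage points for which no error is known. The isoforms are 83.5% identical over 109 aligned residues. Their longest shared coding run, 35 bases from base 226 of CYC1 and base 238 of CYC7, is shown because it bounds how well short reads tell them apart.
Shared run of CYC1 and CYC7: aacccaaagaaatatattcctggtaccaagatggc
A read of 50 bases from either coding sequence therefore differs from the other isoform in at least 1 base. The genotype places the CYC1 terminator behind crtE, which was listed at 4167 TPM in YPM against 4009 TPM in YPD. Whether reads of that terminator are part of the CYC1 value was not tested. Without CYC1 the median of the members was -0.38.

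Cytochrome c oxidase, complex IV, reduces oxygen and needs copper and heme. COX5A (YNL052W), the aerobic form of subunit V, was listed at 556 TPM in YPM against 684 TPM in YPD (-0.30). COX5B (YIL111W), the hypoxic form, was listed at 74.1 TPM in YPM against 120 TPM in YPD (-0.68). The hypoxic form thus held 11.8% of the pair in YPM and 14.9% in YPD. COX5A exceeded COX5B by 7.50 times in YPM and by 5.73 times in YPD. The hypoxic share was lower in YPM for subunit V and higher in YPM for cytochrome c, so the isoform pairs did not move one way, and none of these genes reached the limit. The proteins of COX5A and COX5B are 65.3% identical over 150 aligned residues, with no shared coding run above 12 bases.

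**Figure D4:**
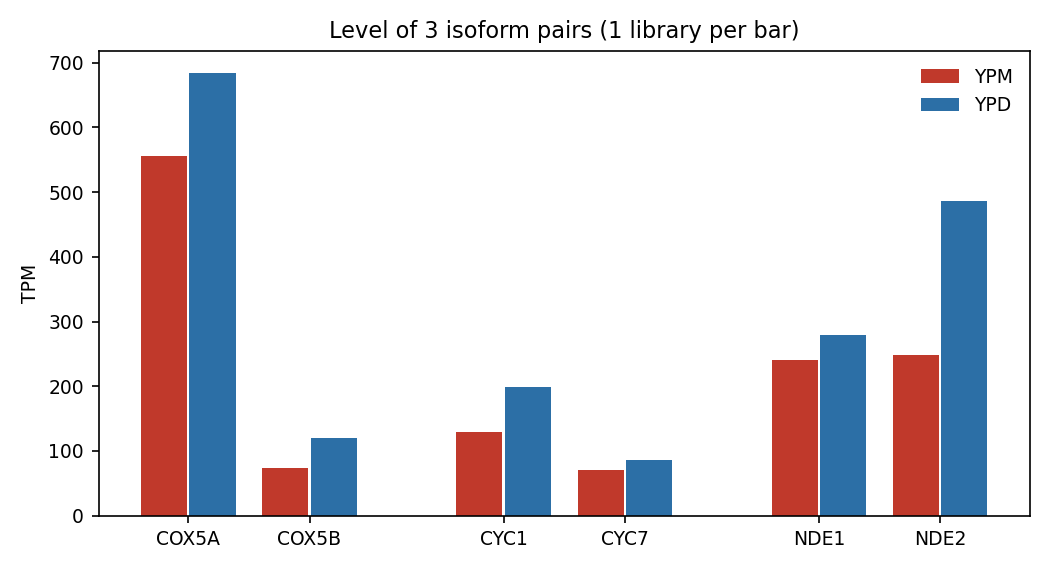
TPM (y axis, from 0) of COX5A and COX5B, CYC1 and CYC7, and NDE1 and NDE2, with the YPM library as the left and the YPD library as the right bar of each gene, 1 library per bar and no error. COX5A stands above COX5B and CYC1 above CYC7 in both libraries, whereas NDE2 stands above NDE1 by a wide margin only in YPD, with 487 TPM against 280 TPM.

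Among the other subunits of complex IV, COX9 (YDL067C), subunit VIIa, had the lowest ratio, with 629 TPM in YPM and 1192 TPM in YPD (-0.92). COX12 (YLR038C), subunit VIb, followed with 1242 TPM in YPM and 2066 TPM in YPD (-0.73). COX6 (YHR051W), subunit VI, was listed at 557 TPM in YPM against 817 TPM in YPD (-0.55). These subunits surround the catalytic core, which is encoded in mitochondrial DNA. The most abundant subunit was COX7 (YMR256C), with 1811 TPM in YPM and 2551 TPM in YPD (-0.49). COX13 (YGL191W), subunit VIa, had 1581 TPM in YPM and 2029 TPM in YPD (-0.36). COX8 (YLR395C), subunit VIII, had 398 TPM in YPM and 485 TPM in YPD (-0.28). All 8 compared genes were thus listed lower in YPM. COX4 (YGL187C), subunit IV, was listed at 0 in both libraries, as were 177 protein-coding genes in all. HYP2 (YEL034W), the main gene of the translation factor eIF5A, which every growing cell uses, was also listed at 0 in both. The study took these cells to be in stationary phase, so HYP2 cannot decide whether a 0 is a failed estimate. This was not tested, and the 0 says nothing on whether COX4 was expressed.

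The ATP synthase uses the proton gradient to make ATP, and its subunits lay closest to the median of all genes. In the catalytic head, ATP2 (YJR121W), the beta subunit, was listed at 623 TPM in YPM against 890 TPM in YPD (-0.51). ATP1 (YBL099W), the alpha subunit that alternates with it in the ring, was listed at 448 TPM in YPM against 541 TPM in YPD (-0.27). ATP2 therefore exceeded ATP1 in both libraries, although the head holds equal numbers of both. In the central stalk, ATP3 (YBR039W), the gamma subunit, had 732 TPM in YPM and 854 TPM in YPD (-0.22). ATP16 (YDL004W), the delta subunit, had 519 TPM in YPM and 642 TPM in YPD (-0.31). ATP15 (YPL271W), the epsilon subunit, was the one member listed higher in YPM, with 2887 TPM in YPM and 2676 TPM in YPD, a log2 ratio of 0.11. It was also the most abundant member and has one of the shortest coding sequences, 189 bases.

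The stator stalk, which holds the head in place, had the narrowest range of log2 ratios among the parts of the enzyme. Its 4 genes ATP4 (YPL078C), ATP5 (YDR298C), ATP7 (YKL016C) and ATP14 (YLR295C) ran from 315 to 824 TPM in YPM and from 362 to 984 TPM in YPD, with log2 ratios between -0.28 and -0.20. In the membrane sector, ATP19 (YOL077W-A), subunit k, had the lowest ratio with 1547 TPM in YPM and 2230 TPM in YPD (-0.53). TIM11 (YDR322C-A), subunit e, which joins synthases into dimers, was listed at 957 TPM in YPM against 1258 TPM in YPD (-0.39). ATP20 (YPR020W), subunit g, its partner in the dimer, had 427 TPM in YPM and 460 TPM in YPD (-0.11), close to the median of all genes. ATP17 (YDR377W), subunit f, stood at -0.17, and ATP18 (YML081C-A), subunit i, at -0.24. The 5 genes of the membrane sector ran from 425 to 1547 TPM in YPM and from 460 to 2230 TPM in YPD. INH1 (YDL181W), which blocks ATP hydrolysis by the enzyme when the gradient collapses, stood apart from the subunits, with 627 TPM in YPM and 1052 TPM in YPD (-0.74). STF1 (YDL130W-A), a paralog of INH1 and not a member, was listed at 1291 TPM in YPM against 2132 TPM in YPD (-0.72).

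Assembly of the complexes needs many proteins that are not part of them, and 41 such factors were compared as lists. Together they had a median log2 ratio of -0.04, with 22 below and 19 above 0, against 63.1% of all compared genes below 0, and 2 of the 41 were lower by the limit while 0 were higher, against 5.15% and 3.28% of all compared genes. The 7 factors of the ATP synthase had a median of 0.14, from ATP12 at -0.04 to FMC1 at 0.19, and all of them lay above the median of all compared genes. The 7 factors of complex III had a median of 0.02, from CBP4 at -0.32 to MZM1 at 0.50. The 23 factors of complex IV were spread more widely around a median of -0.23. COA4 (YLR218C) was the lowest of these, with 38.0 TPM in YPM and 96.4 TPM in YPD, a log2 ratio of -1.32 that passed the limit, and COX15 (YER141W), a heme a synthase, was the highest at 0.33. COX17 (YLL009C), the copper chaperone of complex IV, was named after its values were seen, with 101 TPM in YPM and 154 TPM in YPD (-0.61). Its partners in copper delivery, SCO1 (-0.02) and COX11 (-0.23), were named in the same way. Of the 4 factors of complex II, SDH6 (YDR379C-A) passed the limit at 683 TPM in YPM and 1432 TPM in YPD (-1.07), which it no longer did once the median gene was brought to no change, while SDH5 was highest at 0.27.

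**Figure D5:**
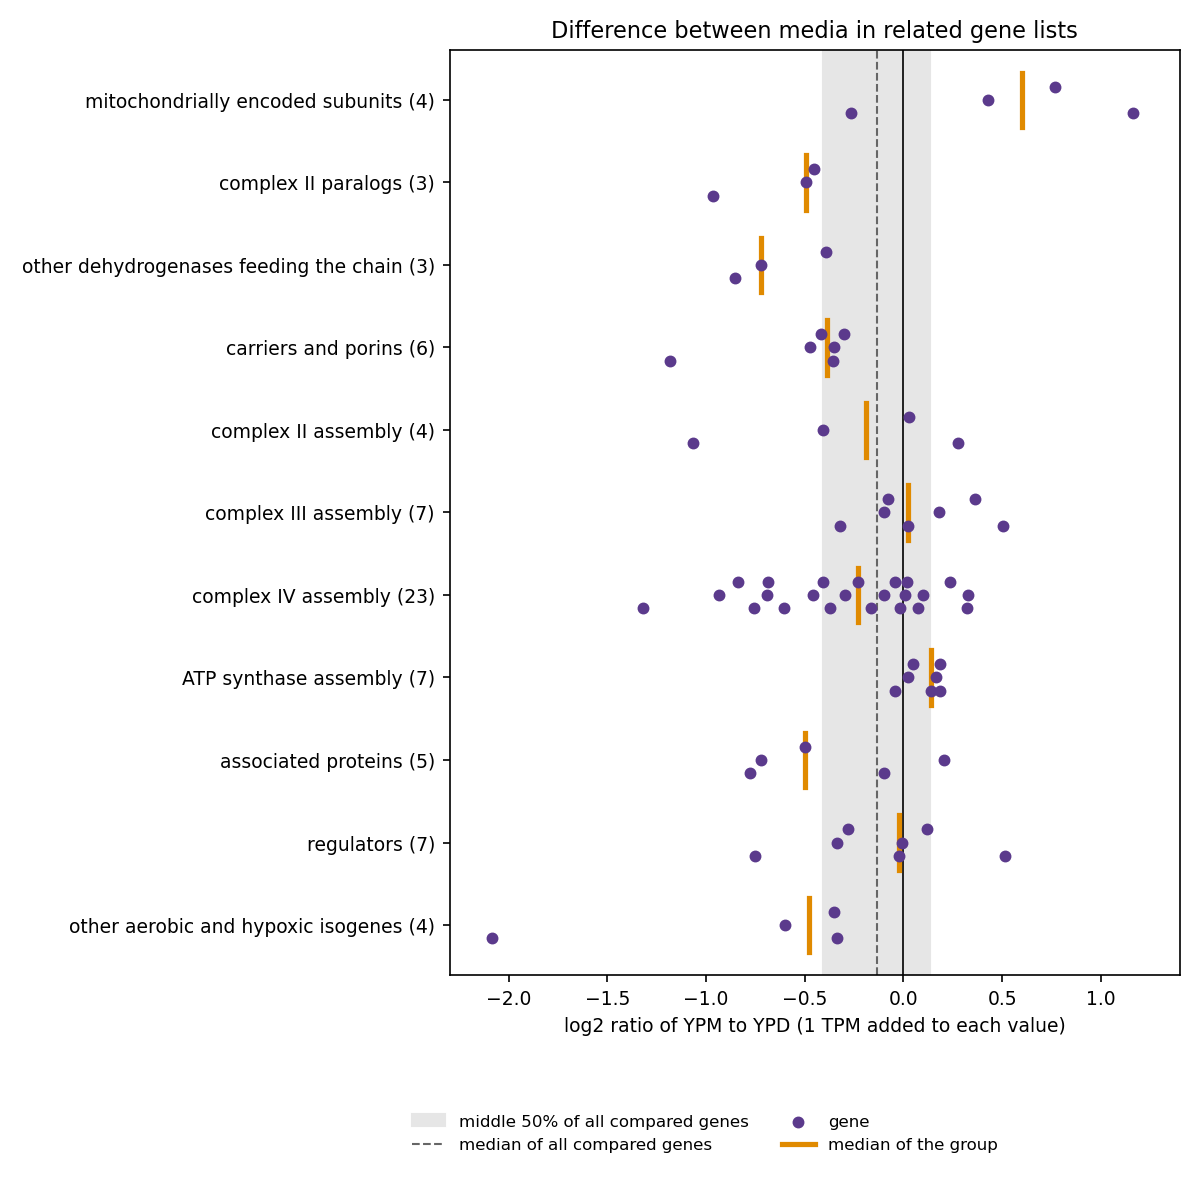
Log2 ratio of YPM to YPD (x axis, 1 TPM added to each value) for genes outside the member set with a mean of at least 1 TPM, by list with the number of genes, with a bar at each median, a dashed line at the median of all compared genes (-0.13) and a grey band over their middle 50%. The 7 assembly factors of the ATP synthase lie between -0.04 and 0.19, and ANB1 at -2.09, COA4 at -1.32, POR1 at -1.18 and SDH6 at -1.07 lie below -1.

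Of the listed proteins next to the chain, 3 of 3 other dehydrogenases, 6 of 6 compared carriers and porins and 4 of 5 associated proteins were below 0, against 63.1% of all compared genes. By the limit 1 of them, POR1, was lower, against 5.15% of all compared genes. The dehydrogenases that feed it from other substrates were CYB2 (YML054C, L-lactate) at 90.7 TPM in YPM and 165 TPM in YPD (-0.85), DLD1 (YDL174C, D-lactate) at -0.72 and GUT2 (YIL155C, glycerol 3-phosphate) at -0.39. Among carriers and porins, POR1 (YNL055C), the main pore of the outer mitochondrial membrane, passed the limit with 904 TPM in YPM and 2057 TPM in YPD (-1.18). The other 5 compared genes of that list lay between -0.47 for PIC2 and -0.30 for POR2, with the main ADP/ATP carrier PET9 (YBL030C) at 338 TPM in YPM and 431 TPM in YPD (-0.35). AAC3, the hypoxic ADP/ATP carrier, was below 1 TPM in both libraries. Of the 5 proteins that associate with complex IV or the ATP synthase, COX26 (YDR119W-A) was lowest at 1539 TPM in YPM and 2635 TPM in YPD (-0.78), and RCF2 was highest at 0.20.

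Regulators of these genes were compared as a list of 7. By the limit 0 of them changed, against 8.43% of all compared genes in either direction. HAP4 (YKL109W), the activating subunit whose own level is held down by glucose, was the lowest, with 120 TPM in YPM and 203 TPM in YPD (-0.75). The DNA-binding partners HAP2 (-0.02), HAP3 (-0.01) and HAP5 (-0.33) were nearer to 0. HAP1 (YLR256W), the heme-responsive activator, stood at 0.12 with 56.9 TPM in YPM and 52.3 TPM in YPD, and strains of the S288C family such as BY4742 are known to carry a Ty insertion in this gene. The repressors of hypoxic genes stood on either side of 0, ROX1 at -0.28 and MOT3 at 0.51. The median of the 7 was -0.02. No test links the level of a regulator to that of the members. Of other pairs of an aerobic and a hypoxic gene, ANB1 (YJR047C), the hypoxic copy of eIF5A, was the lowest, with 3.81 TPM in YPM and 19.4 TPM in YPD (-2.09). Its partner HYP2 was listed at 0 in both libraries, and whether reads of HYP2 are part of the ANB1 value was not tested. HMG1 stood at -0.60 and HMG2 at -0.34. Whether reads of the truncated HMG-CoA reductase that the strain carries are part of the HMG1 or HMG2 value was not tested.

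The partner subunits encoded in mitochondrial DNA were listed near 0. Yeast mitochondrial mRNAs lack the poly(A) tail by which these libraries were selected, and the 7 genes COX1, COX2, COX3, COB, ATP6, ATP8 and OLI1 ranged from 0 to 27.8 TPM in YPM and from 0 to 11.9 TPM in YPD. COB and ATP8 were listed at 0 in both. OLI1, the ring subunit of the ATP synthase, was highest with 27.8 TPM in YPM and 11.9 TPM in YPD (1.17). COX1 was the one compared gene of these below 0, with 1.78 TPM in YPM and 2.34 TPM in YPD (-0.26). The median of the 4 with a mean of at least 1 TPM was 0.60, opposite in sign to the nuclear members, and it moved between 0.22 and 1.17 with the constant added and the minimum used.

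The labels of the strain could be checked in the same table. GAL80, ALD6 and the marker genes HIS3, LEU2, LYS2 and URA3, the last 4 of them deleted in full or in part in BY4742, were listed at 0 in both libraries. MF(ALPHA)1, the pheromone gene of the alpha mating type, was listed at 317 TPM in YPM against 427 TPM in YPD, and MFA1, that of the opposite type, at 0 in both. STE3, the receptor of alpha cells, stood at 72.7 TPM in YPM and 37.5 TPM in YPD, above STE2, the receptor of the opposite type, with 8.70 TPM in YPM and 7.43 TPM in YPD. The limit on a 0 given for COX4 holds for these genes too.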

How the data were processed

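RNA of 1 sample per medium was sequenced by the study from polyA-selected libraries, and the authors deposited TPM estimated with RSEM, 1 column per library. HISAT2 and StringTie are also listed in the submitters' processing notes. The genome build, annotation, versions, read length and depth are not given in the sources used here. TPM keeps no read number, so no interval or detection limit was computed. The column MYPD was taken as YPM, since the growth protocol calls YPM a modified YPD. The 4 lines emptied in the table were not analysed here, and no column of the authors' own comparisons was present.

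Log2 ratios of YPM to YPD were taken with 1 TPM added, genes averaging under 1 TPM were left out, and a log2 ratio of 1, up or down, marked a change. No test was possible with 1 library per medium. Members and lists were chosen with earlier results of these data known. All members are accounted for, and of other lists the largest rise and fall, and for lists of up to 7 genes further members, are named, and a gene named outside this rule is said to be so. Names, promoters, coding sequences and translations came from the RefSeq annotation and genome of R64, which matched 6044 rows. The build behind the deposited values can differ. Protein identity was computed over global alignments (BLOSUM62). The computation of ratios and calls was checked on simulated data with known fold changes. Alternatives were other added constants (0.1 or 5 TPM, or none), other minimum means, rescaling to the median gene or without the 20 most abundant rows, a 1.5-fold limit, and lists without short coding sequences. Python 3.11.15, pandas 2.3.3, numpy 2.4.6, scipy 1.17.1 and matplotlib 3.10.9 were used.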

Additional observations from a re-analysis of the deposited data

How the results depend on the processing

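A value was counted as moved when a log2 ratio shifted by 0.2 or more, a share by 5 percentage points or more, or a count by more than 1.5 times, since no replicate error exists. All 41 members kept their log2 ratio within 0.2 under every alternative run for single genes, and the count at a log2 limit of 1 stayed at 0. These alternatives could hardly move them, since every compared member averaged at least 78.7 TPM, where the added constants weigh little. A minimum mean leaves a ratio unchanged, and rescaling shifts all such genes nearly alike. The median of the members and those of the 6 complexes also stayed within these bounds. So did the isoform shares, which were rerun only with 1 TPM added. With a limit of 1.5-fold, 10 of the 41 members passed, all of them lower in YPM. Of all compared genes 1445 passed in both directions together (22.8%), and 14.9% were lower. With this limit and YPM rescaled to the median gene, chosen after the data were seen, 5 of the 41 members passed, all lower. Then 1367 of all compared genes passed in both directions together (21.5%), and 10.7% were lower. The count of all changed genes was 354 with 5 TPM added (5.57%). It was 166 among the 1927 genes at least as abundant as the scarcest member, 69 of them higher and 97 lower. That alternative was also chosen after the data were seen and has fewer genes to compare. Its share of lower genes was 5.03%, against 5.15% in the main setting. The median of the mitochondrially encoded subunits was 0.98 with 0.1 TPM added, 0.22 with 5 TPM added, 1.02 with none added and 1.17 at a minimum mean of 10 TPM, where OLI1 is the only gene left. Of the 4 compared, 2 were changed with 0.1 TPM added and 2 with none added, against 9.39% and 8.6% of all compared genes. With 5 TPM added 0 were changed, against 5.57%. Of the 4 complex II assembly factors, 0 were changed after YPM was rescaled to the median gene, against 8.06% of all compared genes. Leaving out members with shared 50-base words changed nothing because there were none. No paired analysis was possible because each medium has 1 library, and none could be left out for the same reason. TPM keeps no depth, so the precision of low values such as those of the mitochondrial genes is unknown.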
